A study of Mus musculus with 8 samples.

Results

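The 10 pigment cell genes below were followed through RNA-seq libraries of effector Treg (eTreg) cells: Tyr, Tyrp1, Dct, Pmel, Mlana, Slc45a2, Sox10, Mitf, Trpm1 and Syt4. They are 10 of the 49212 genes in the count tables. They were selected on measured values, namely that tumor eTreg libraries of WT mice held them and splenic ones largely did not, so the WT tumor against WT spleen values are given as a description with no test. The question was how much pigment cell RNA each library held and whether these transcripts stood in a fixed ratio to one another. The study compared eTreg cells from tumors (tumor-infiltrating, TIL) and spleens of Foxp3-YFP-Cre mice (WT) and of mice that add Prdm1 fl/fl to Foxp3-YFP-Cre (KO), where Cre, expressed from the Foxp3 locus, is meant to delete Prdm1 (the gene of Blimp1) in Treg cells. WT mice carry the same Cre and YFP. There were 2 libraries in each of the 4 groups, 8 in all. All mice were of the C57BL/6 strain, carried subcutaneous B16-OVA tumors, a mouse melanoma line that expresses ovalbumin, inoculated on day 0, and were immunized with NP-OVA on days 0 and 7. Tumors measured at most 1.5 cm3, and the study used mice of 5 to 10 weeks of age unless stated otherwise. Cells were sorted as CD45+CD44+YFP+CD4+CD3+, a gate that melanoma cells, which lack CD45, should not pass. Nothing in the labels says whether the replicates came from separate mice, so p-values measure only the spread between these libraries, which may be technical.

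Pigment cells make melanin inside melanosomes, organelles related to lysosomes. Tyrosinase (Tyr) starts the pathway by oxidizing tyrosine, and its relatives Tyrp1 and Dct act on later intermediates. Pmel forms the fibrils on which melanin is laid down, Mlana (MART-1) takes part in melanosome formation, and Slc45a2 is a transporter of the melanosome. Sox10, a transcription factor of the neural crest, switches on Mitf in this lineage. Mitf in turn binds E-box and M-box sequences in the promoters of pigment genes, and is itself also used by mast cells, macrophages and osteoclasts, from other promoters. B16 cells, of melanocyte origin, express this program, whereas T cells make no melanin.

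RefSeq promoter windows (GRCm38.p6) were at hand for 5 of the 10 genes, 8 windows in all, and the 250 bases before each start were searched on both strands for the core of the M-box, TCATGTG, and for the cyclic AMP response element (CRE), TGACGTCA. The M-box core was in a window of 4 of these genes, Tyr, Tyrp1, Dct and Trpm1, and in 3.25% of all 32851 windows. The CRE was in the most 3′ of the 3 windows of Mitf and in 1.55% of all windows. The sequences of Tyr, Dct and this Mitf window are shown as examples of these motifs. Among the TIL libraries the enzyme genes rose and fell together and Mitf did not keep pace with them. Neither did Trpm1, which has the M-box core, and Slc45a2, the steadiest of the 10, had no window at hand. Whether the motifs bear on these levels was not tested. The sequences read 5′ to 3′ on the gene's strand, with the matches in capitals.
Tyr: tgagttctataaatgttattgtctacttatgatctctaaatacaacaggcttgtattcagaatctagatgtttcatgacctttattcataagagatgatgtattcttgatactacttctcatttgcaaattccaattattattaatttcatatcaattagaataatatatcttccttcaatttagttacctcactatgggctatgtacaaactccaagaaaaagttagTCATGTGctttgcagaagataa
Dct: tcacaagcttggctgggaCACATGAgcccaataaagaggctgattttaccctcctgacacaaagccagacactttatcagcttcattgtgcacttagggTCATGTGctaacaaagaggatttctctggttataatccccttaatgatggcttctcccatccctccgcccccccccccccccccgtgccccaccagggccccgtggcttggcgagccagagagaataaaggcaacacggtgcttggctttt
Mitf: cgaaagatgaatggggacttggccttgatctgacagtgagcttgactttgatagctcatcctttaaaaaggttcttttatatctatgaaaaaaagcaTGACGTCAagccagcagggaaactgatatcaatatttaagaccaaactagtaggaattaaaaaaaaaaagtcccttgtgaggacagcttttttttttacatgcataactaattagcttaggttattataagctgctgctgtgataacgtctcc
The Tyr window is chr7:87493513-87493762 on the minus strand, and its M-box core begins 22 bases before the start. The Dct window is chr14:118052247-118052496, also on the minus strand, with 1 match on each strand, 151 and 232 bases before the start. The Mitf window is chr6:97991533-97991782 on the plus strand, with the CRE 153 bases before the start. A match to these letters is a description of the sequence and was not tested as a binding site.

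The libraries held between 27834676 and 43903859 counts on genes, so 3 counts, taken as the floor, corresponded to 0.0683 to 0.108 CPM. CPM are counts over the size of the library on a common scale, and all levels below, unlike these floors, also carry edgeR's TMM scaling. Prdm1, the targeted gene, stood at 90.7 and 75.1 CPM for KO TIL, below the 108 and 192 CPM of WT TIL. In the spleen it did not follow the labels, with 40.6 and 53.4 CPM for KO and 54.0 and 21.0 CPM for WT, so KO and WT name the labels here. Counts are summed over all exons of Prdm1, including any outside the deleted part. Of the 6 genes of the sort gate, Ptprc (CD45), Cd44, Cd3e and Cd3g were detected at 254 CPM or more in every library. Cd4 stood at 148 and 66.2 CPM in KO TIL against 807 and 1086 CPM in WT TIL and 384 to 1009 CPM in the spleen, and Foxp3, which marks Treg cells and drives the YFP, at 10.2 and 2.99 CPM in KO TIL against 25.5 and 60.5 CPM in WT TIL and 43.0 to 69.6 CPM in the spleen, so the KO TIL libraries were the lowest of all 8 for both. Markers of other cells were present too: the 9 macrophage markers summed to 15107 and 1763 CPM for KO TIL and 3244 and 556 CPM for WT TIL, against 312 to 2202 CPM in the spleen.

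Of the 3 melanin enzymes, Tyrp1 (chromosome 4, 80834123 to 80851719, plus strand, GRCm38) was the most abundant of all 10 genes. Its TIL levels were 1425 and 350 CPM for KO replicates 1 and 2, and 956 and 569 CPM for the WT replicates. The spleen held 0 counts in both KO libraries and 13 and 1 counts in the WT libraries. Every TIL library thus lay far above every splenic one, and the KO values lay on both sides of the WT values. Dct (chromosome 14, 118012792 to 118052246, minus strand) reached 651 and 161 CPM for KO TIL, 371 and 225 CPM for WT TIL, and had 6 counts in the first WT splenic library and 0 in the other splenic libraries. Tyr (chromosome 7, 87424771 to 87493512, minus strand), which starts melanin synthesis, reached 99.7 and 23.7 CPM for KO TIL, 75.6 and 40.9 CPM for WT TIL, with 0 counts in all 4 splenic libraries. For all 3 enzymes the order of the TIL libraries was the same, with KO replicate 1 highest, then WT replicate 1, WT replicate 2 and KO replicate 2. Relative to library size, the summed counts of Tyrp1 in WT mice were 3320-fold higher in TIL (95% interval 1978 to 6073), those of Dct 3032-fold (1393 to 8263), and those of Tyr at least 592-fold. The first 2 folds rest on the few counts of WT splenic replicate 1. Without that library 1 splenic count of Tyrp1 remained, a ratio of 21209 (3806 to 837718), and 0 of Dct, at least 2789-fold, and without WT splenic replicate 2 the folds were 1944 for Tyrp1 and 1648 for Dct. In KO mice the bounds were at least 12642-fold for Tyrp1, at least 5785-fold for Dct and at least 879-fold for Tyr, again with TIL higher. These bounds use the floor of 3 counts per library, and intervals and floors cover counting error only, since amplified reads that carry no molecular identifier are not independent of one another.

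The melanosome proteins divided by what the spleen held. Pmel (chromosome 10, 128706258 to 128720238, plus strand) reached 717 and 210 CPM for KO TIL, 483 and 184 CPM for WT TIL. The splenic libraries were not at 0, with 3.67 and 5.40 CPM for KO, 5.75 and 6.56 CPM for WT, from 171 to 213 counts each. Its rise over the spleen was therefore smaller than that of the enzymes, 109-fold in KO (98.1 to 120) and 53.8-fold in WT (48.5 to 59.7). Pmel shares 98 exonic bases with Dgka, a diacylglycerol kinase gene on the opposite strand that had 5373 to 18661 counts in the splenic and 2147 to 7240 counts in the TIL libraries. Whether the counting used strand is not stated, so reads of the 2 genes cannot be told apart there. Mlana (chromosome 19, 29697921 to 29708448, plus strand) reached 92.8 and 31.1 CPM for KO TIL, 57.2 and 40.5 CPM for WT TIL, with 1 and 3 counts in the KO and 10 and 4 counts in the WT splenic libraries. That is a ratio of 1387 in KO (541 to 5092) and of 213 in WT (127 to 391). The WT ratio of Mlana was 341 without WT splenic replicate 1, the KO ratio was 848 and 3002 without KO splenic replicate 1 or 2, which leaves 3 or 1 splenic counts, and the WT fold of Pmel was 30.1 without WT TIL replicate 1. Slc45a2 (chromosome 15, 11000721 to 11029233, plus strand) reached 212 and 53.8 CPM for KO TIL, 134 and 80.1 CPM for WT TIL. It had 0 counts in all 4 splenic libraries, so it was at least 1895-fold higher in TIL in KO and at least 1087-fold in WT.

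Among the regulators and the remaining genes, Sox10 (chromosome 15, 79154913 to 79164490, minus strand) reached 35.3 and 7.59 CPM for KO TIL, 18.0 and 12.4 CPM for WT TIL. It had 0 counts in the spleen, which puts TIL at least 306-fold higher in KO mice and at least 154-fold higher in WT mice. Syt4, which encodes a synaptotagmin, a protein of vesicle traffic, followed the same pattern, with 135 and 27.6 CPM for KO TIL, 61.8 and 49.8 CPM for WT TIL and 0 counts in the spleen. Bounds for Syt4 were at least 1155-fold in KO and at least 567-fold in WT. Sox10 and Syt4 kept the enzymes' order of libraries. Mitf (chromosome 6, 97807052 to 98021349, plus strand) did not. It reached 40.7 and 10.4 CPM for KO TIL, 14.8 and 4.89 CPM for WT TIL, so WT replicate 2 was the lowest TIL library. Splenic levels were 1.10 and 1.11 CPM for KO, 1.02 and 2.53 CPM for WT, from 34 to 71 counts. Trpm1 (chromosome 7, 64153835 to 64269775, plus strand), a cation channel gene of melanocytes and retina, reached 32.9 and 13.3 CPM for KO TIL, 19.8 and 7.39 CPM for WT TIL, against 1.57 and 1.37 CPM (KO) and 2.81 and 2.57 CPM (WT) for the spleen. Mitf and Trpm1 had the smallest rises over the spleen, 24.3-fold (19.7 to 30.2) and 16.2-fold (13.5 to 19.6) in KO, and 5.67-fold (4.60 to 7.06) and 4.96-fold (4.19 to 5.90) in WT. Single libraries weighed on these values: without WT TIL replicate 1 the WT folds were 2.86 for Mitf and 2.74 for Trpm1, and the fold for Mitf was 8.66 without WT TIL replicate 2, 3.83 without WT splenic replicate 1 and 9.52 without WT splenic replicate 2. Without KO TIL replicate 1 the KO folds were 9.38 for Mitf and 9.02 for Trpm1, and without KO TIL replicate 2 that of Mitf was 36.9. Over all 10 genes the KO folds and bounds came to 0.340 to 0.557 of those given when KO TIL replicate 1 was left out and to 1.38 to 1.66 times them without KO TIL replicate 2. Trpm1 hosts Mir211, which had 0 counts in all 8 libraries in these tables.

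All 10 genes had their 4 TIL values above their 4 splenic values, as did 14.1% of the 17870 genes kept by the expression filter over 8 libraries. The WT libraries that chose the genes are among them. KO replicate 1 was the highest TIL library for all 10 genes. The lowest was KO replicate 2 for 7 genes and WT replicate 2 for the other 3, Pmel, Mitf and Trpm1, which were also the 3 with the highest splenic levels.

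**Figure D1:**
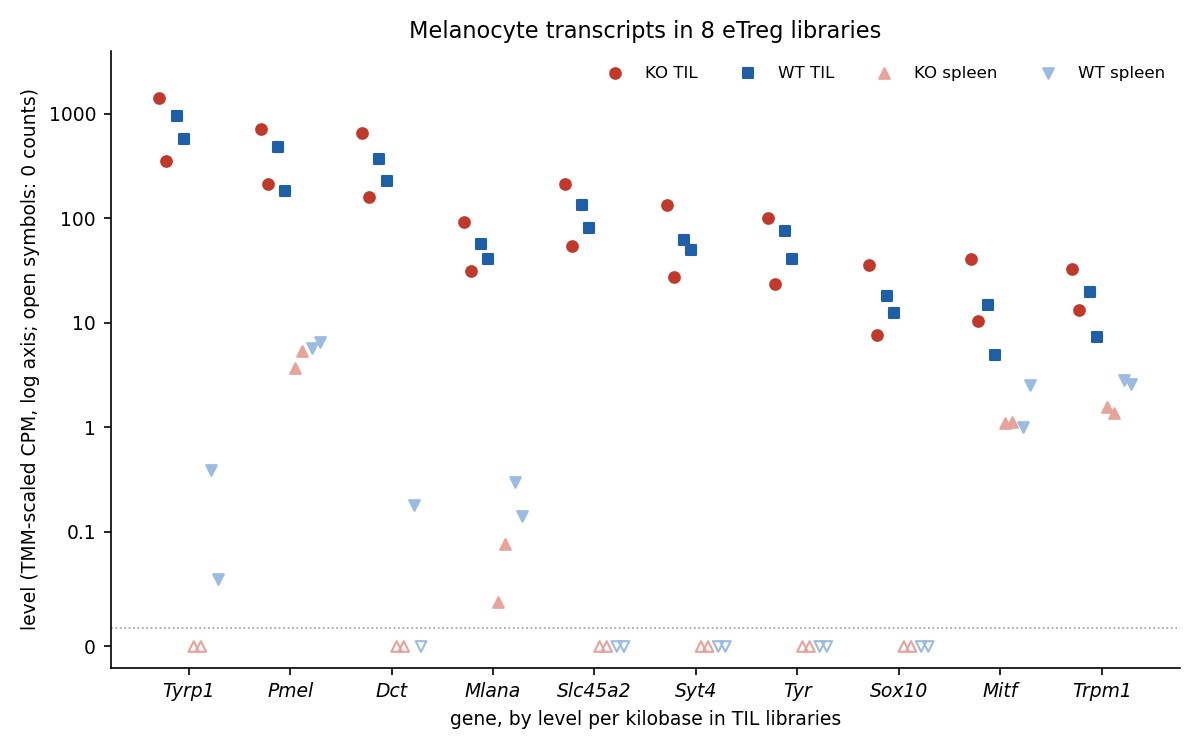
Level of each of the 10 melanocyte genes in each of the 8 eTreg libraries, as TMM-scaled CPM on a log axis (open symbols on the bottom line: 0 counts), with genes in order of their level per kilobase in TIL. The 4 TIL points of a gene lie above its 4 splenic points, and the KO TIL points lie on both sides of the WT TIL points, or interleave with them.

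The KO libraries, which did not choose the genes, allowed a test of TIL against spleen. Called genes passed an adjusted p of 0.05 (Benjamini-Hochberg, over all genes tested) with an absolute log2 fold change over 1. By edgeR's quasi-likelihood test on the 4 KO libraries, 2 of the 10 were called higher in KO TIL, Mlana (log2 fold change 10.29, standard error 1.0, adjusted p = 0.0374) and Pmel (6.70, standard error 0.82, adjusted p = 0.0485), against 0.803% of 16933 genes called higher. Of the 10, 6 had 0 counts in both KO splenic libraries and Mlana had 1 and 3, too few to pass the expression filter there. These genes entered the test through KO TIL alone and could only come out higher. Their calls, under any setting below, are a description. The other 8 had adjusted p-values between 0.0501 and 0.0599 by the same test, with fold changes that against 0 splenic counts depend on the model's prior and are bounded by the folds above. For Mitf the fitted change was 4.56 on the log2 scale (standard error 0.81), and for Trpm1 4.0 (0.59). On these 4 libraries DESeq2's Wald test called all 10, against 12.6% of 19926 genes called higher. edgeR's test called 10 of 10 with all 8 libraries in the fit, which include the WT libraries that chose the genes, and 10 of 10 with no expression filter. All genes called in either direction went from 228 to 1743 and 3183 under these settings. With 1 of the 4 libraries left out, the log2 fold change ran from 5.54 to 7.35 for Pmel and from 9.28 to 11.3 for Mlana. Whether genes were called depended on which library was left out. In the WT libraries the fitted log2 fold changes were 5.76 for Pmel, 7.75 for Mlana, 2.47 for Mitf and 2.34 for Trpm1, given here as a description.

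Levels between genes were compared per kilobase of exon. Over the 4 TIL libraries Tyrp1 averaged 292 ± 167 CPM per kilobase (SD, n = 4), followed by Pmel at 187 ± 118, Dct at 156 ± 96.4 and Mlana at 88.9 ± 43.6. Slc45a2 followed at 40.2 ± 23.4, Syt4 at 17.5 ± 11.9, Tyr at 8.44 ± 4.81 and Sox10 at 6.75 ± 4.46. Mitf (2.86 ± 2.56) and Trpm1 (1.24 ± 0.741) were the lowest. The SDs of neighbours in this order overlap. Within a library, each gene was above the next in all 4, except that Pmel was above Dct in 3 of 4 and below it in WT replicate 2 (86.3 against 99.7 CPM per kilobase).

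Summed over the 10 genes, melanocyte transcripts gauged how much pigment cell RNA a library held. They made up 0.307% of all counts in KO TIL replicate 1 (95% exact binomial interval 0.305 to 0.309), 0.0854% in KO TIL replicate 2 (0.0843 to 0.0865), 0.205% in WT TIL replicate 1 (0.204 to 0.207) and 0.117% in WT TIL replicate 2 (0.115 to 0.118). Splenic libraries held 0.000674% to 0.00117%. These splenic counts were mostly Pmel (760 in all), Trpm1 (293) and Mitf (200), against 14 of Tyrp1, 6 of Dct and 18 of Mlana. Tyr, Sox10, Slc45a2 and Syt4 had 0. Other cells use Mitf and Pmel shares exonic bases with Dgka, so the splenic sums are not a clean gauge of pigment cell RNA. In scaled units the sums came to 3442 and 888 CPM for KO TIL, 2191 and 1214 CPM for WT TIL, against 6.36 to 11.8 CPM in the spleen. The highest TIL library thus held 3.87 times the lowest, both were KO libraries, and the 2 WT libraries lay between them. In bulk RNA, more pigment cells and more RNA per cell cannot be told apart, nor can whole cells and free RNA.

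Other cell markers did not all follow this gauge. Macrophage markers were highest in KO TIL replicate 1 as well (15107 CPM), but WT replicate 2, with more melanocyte RNA than KO replicate 2, had fewer of them (556 against 1763 CPM). Markers of CD8 T cells were highest in KO TIL replicate 2 (2220 CPM), the library with the least melanocyte RNA, against 406 CPM in KO replicate 1 and 148 and 48.2 CPM in WT TIL. NK cell markers summed to 767 and 135 CPM in KO TIL and 167 and 41.0 CPM in WT TIL. Neutrophil markers summed to 330 and 178 against 62.4 and 4.62 CPM, and red cell markers to 819 and 774 against 3366 and 82.3 CPM. Fibroblast markers were low throughout, at 6.92 and 1.31 CPM for KO TIL, 8.76 and 16.9 CPM for WT TIL, with 1 of the 7 at 0 in each TIL group (Lum in KO, Pdgfra in WT). Keratinocyte markers, which stand for epidermis, summed to 0.698 to 1.42 CPM in TIL and 2.63 to 6.92 CPM in the spleen, with Krt5 and Krt14 at 0 in both WT TIL libraries. The 6 genes of the sort gate summed to 2827 and 4276 CPM in KO TIL and 4955 and 6083 CPM in WT TIL. Ptprc differed little (1320 and 1708 against 1709 and 1899 CPM), and Cd44 stood at 734 and 254 against 358 and 306 CPM. Cd3e was at 315 and 1023 against 927 and 1427 CPM, and Cd3g at 299 and 1223 against 1129 and 1305 CPM. Both were thus lowest in KO TIL replicate 1, the library with the most melanocyte RNA. Cd4 had the low KO values given above. With 3 Treg genes outside the gate, Ctla4, Il2ra and Ikzf2, the sums were 3417 and 5340 CPM against 9946 and 12879 CPM, and Ctla4, an inhibitory receptor, alone was 461 and 917 CPM against 4136 and 5719 CPM. The part of these cell markers in the melanocyte values was not tested. With 4 TIL libraries no correlation was computed.

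**Figure D2:**
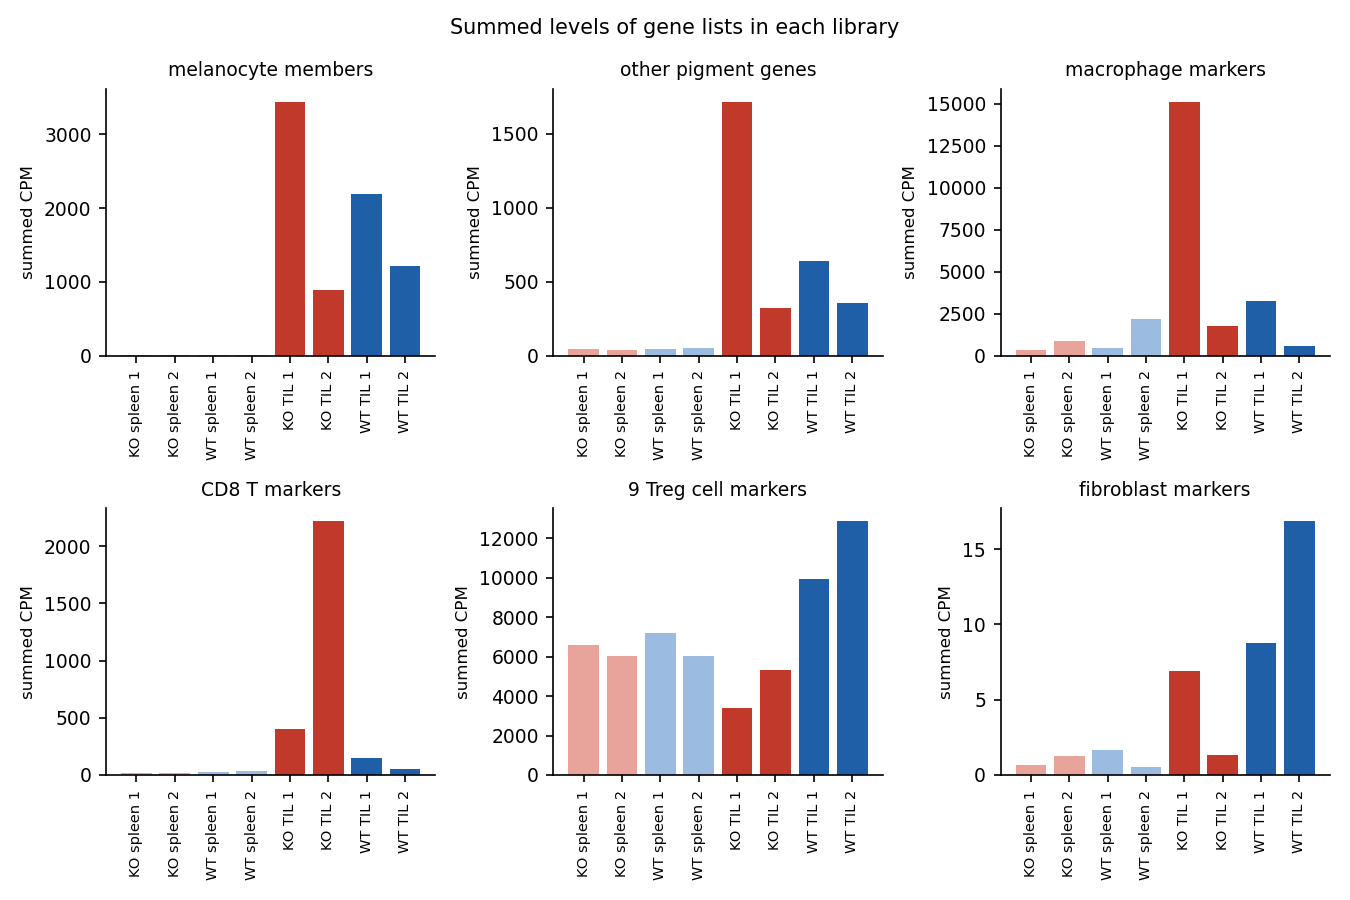
Summed CPM of the 10 melanocyte genes, of 12 other pigment genes and of 4 marker lists, 1 of them 9 Treg cell markers, in each of the 8 libraries (bars start at 0, 1 bar per library, each panel with its own scale). Melanocyte sums are 3442, 888, 2191 and 1214 CPM in the TIL libraries and at most 11.8 CPM in the spleen, while CD8 T markers peak in KO TIL replicate 2 and macrophage markers in KO TIL replicate 1.

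To ask whether the 10 transcripts kept a fixed ratio, each was taken as a share of their summed counts in each TIL library. Slc45a2 was the steadiest, at 6.17% and 6.06% in KO TIL and 6.11% and 6.60% in WT TIL, a ratio of highest to lowest of 1.09. Dct was next, at 18.9% and 18.1% in KO TIL and 16.9% and 18.6% in WT TIL (1.12), and then Tyrp1, at 41.4% and 39.4% against 43.6% and 46.8% (1.19). The shares of these 3 genes moved little while the sum itself moved 3.87-fold. Tyrp1 and Dct are themselves large parts of that sum, which limits how far their shares can move, whereas Slc45a2 is a small part. Sox10 (1.25), Tyr (1.30), Mlana (1.34) and Syt4 (1.45) varied more, from 0.820% to 1.03%, 2.66% to 3.45%, 2.61% to 3.50% and 2.82% to 4.10%. Pmel was at 20.8%, 23.7% and 22.1% in KO replicates 1 and 2 and WT replicate 1, but at 15.1% in WT replicate 2 (1.56). Trpm1 ranged from 0.609% to 1.50% (2.46) and Mitf from 0.403% to 1.18% (2.94). The median ratio over the 10 genes was 1.32.

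The shares were thus close to constant for most genes, but not within counting error. Chi-square per degree of freedom, which counting noise alone would hold near 1 and which otherwise grows with the counts compared, was 65.3 for the 10 genes over 4 TIL libraries and 25.7 without Pmel, Mitf and Trpm1. Counts of PCR reads spread more than independent molecules do, and these values carry no p.

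Mitf and Trpm1 were the 2 genes whose share in TIL was larger for both KO than for both WT replicates. Mitf made up 1.18% (1.12 to 1.25) and 1.17% (1.03 to 1.31) of melanocyte counts in KO, and 0.675% (0.612 to 0.744) and 0.403% (0.340 to 0.474) in WT. Trpm1 was at 0.955% and 1.50% in KO and 0.903% and 0.609% in WT. Tyrp1 and Tyr had smaller shares in both KO libraries, and the shares of the other 6 overlapped. Of 24 other genes with at least 100 counts in every TIL library and at most 3 in every splenic library, 45.8% had a higher ratio to the melanocyte sum in both KO libraries and 4.17% a lower one. Mitf and Trpm1 had more splenic counts than that limit allows, which only 4 of the 10 melanocyte genes met, so these 24 genes are not a like set for them. Taking the mean splenic level away, a setting chosen after seeing the data, widened the ratio of highest to lowest share to 4.0 for Mitf and 2.90 for Trpm1. The order of the TIL libraries by Mitf level was KO replicate 1, WT replicate 1, KO replicate 2 and WT replicate 2. Pmel, Trpm1 and the macrophage markers had the same order, as did NK cell markers (767, 167, 135 and 41.0 CPM). The share of all genes with this order was not computed. Markers of mast cells, which also use Mitf, summed to 28.1 and 22.1 CPM in KO TIL and 10.5 and 7.25 CPM in WT TIL. Kit alone was 26.7, 21.8, 9.55 and 6.92 CPM in the same order, and it is also on the neural crest list used below. Cpa3 went the other way, at 0.095 and 0.150 CPM in KO TIL against 0.180 and 0.337 CPM in WT TIL. Cma1 was at 1.30, 0.112, 0.718 and 0 CPM, and Mcpt4 and Tpsb2 were at 0. The part of mast cells, macrophages or other cells in the Mitf counts was not tested.

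**Figure D3:**
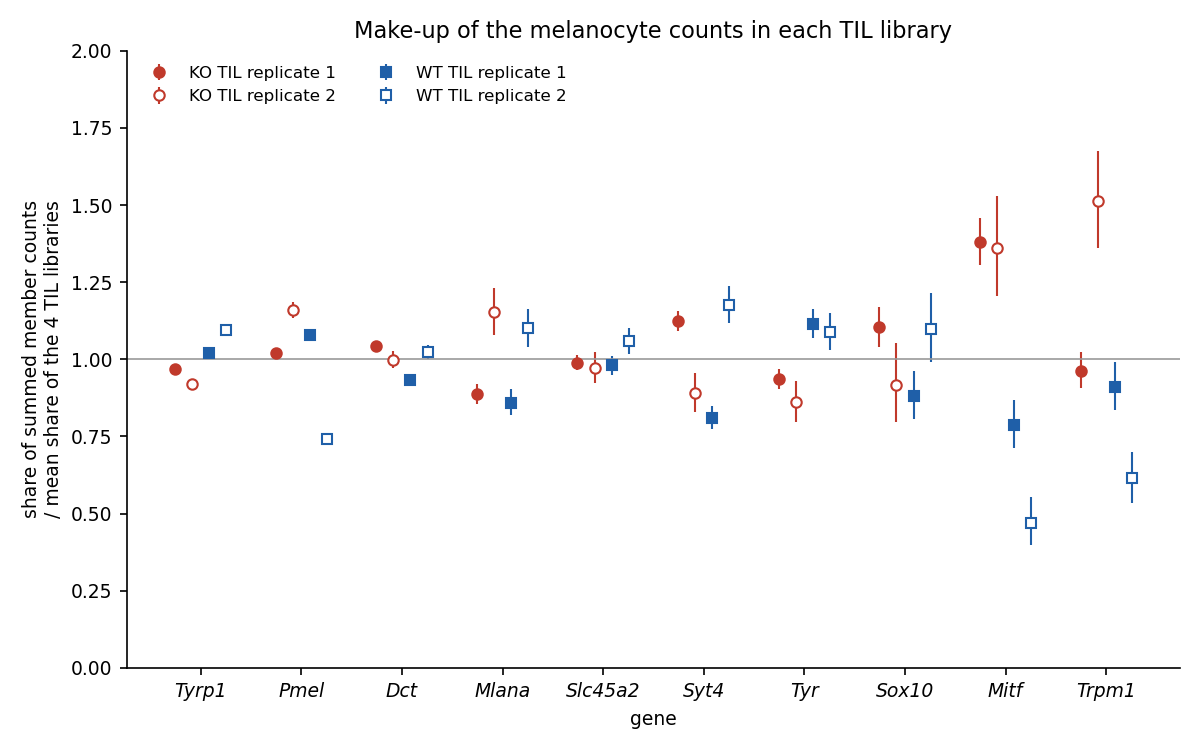
Share of each gene in the summed counts of the 10 melanocyte genes, divided by its mean share over the 4 TIL libraries (vertical axis from 0, bars are 95% exact binomial intervals for counting error). Tyrp1, Dct and Slc45a2 stay close to 1, Pmel falls away in WT replicate 2, and Mitf lies above 1 in both KO and below 1 in both WT libraries.

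Melanocyte transcripts did not separate KO from WT TIL libraries. The WT TIL libraries were among those that chose the genes, so the p-values and intervals here are not independent of that choice. For 0 of the 10 were both KO values above both WT values in CPM, a pattern shown by 18% of the 15935 genes tested. For 0 were both below, a pattern whose share of all genes was not computed. By edgeR's quasi-likelihood test 0 of the 10 passed (0% of all genes passed, 0 of 15935, with 1573 at an unadjusted p under 0.05), and 0 of the 10 had an unadjusted p under 0.05, against 9.87% of all genes. DESeq2's Wald test also called 0 of the 10, against 4.43% of 16779 genes. The log2 fold changes, KO over WT, ran from 0.08 for Tyr (95% interval -1.73 to 1.89) to 1.37 for Mitf (-0.74 to 3.49), all above 0 as were 53.4% of all genes, with a median of 0.46 against 0.04 over all genes. Tyrp1 averaged 888 ± 761 CPM (SD, n = 2) over the KO replicates, 762 ± 274 CPM over the WT ones, with a log2 fold change of 0.22 (-1.56 to 2.00, adjusted p = 0.972 from edgeR's test). Without KO TIL replicate 1 the sign turned for 9 of the 10, for example to -1.13 for Tyrp1 and -1.30 for Tyr, and Mitf went from 1.37 to 0.073. Without WT TIL replicate 1 Mitf was at 2.37. The intervals are wide, so a difference of this size could not be told from the spread between 2 libraries a group.

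**Figure D4:**
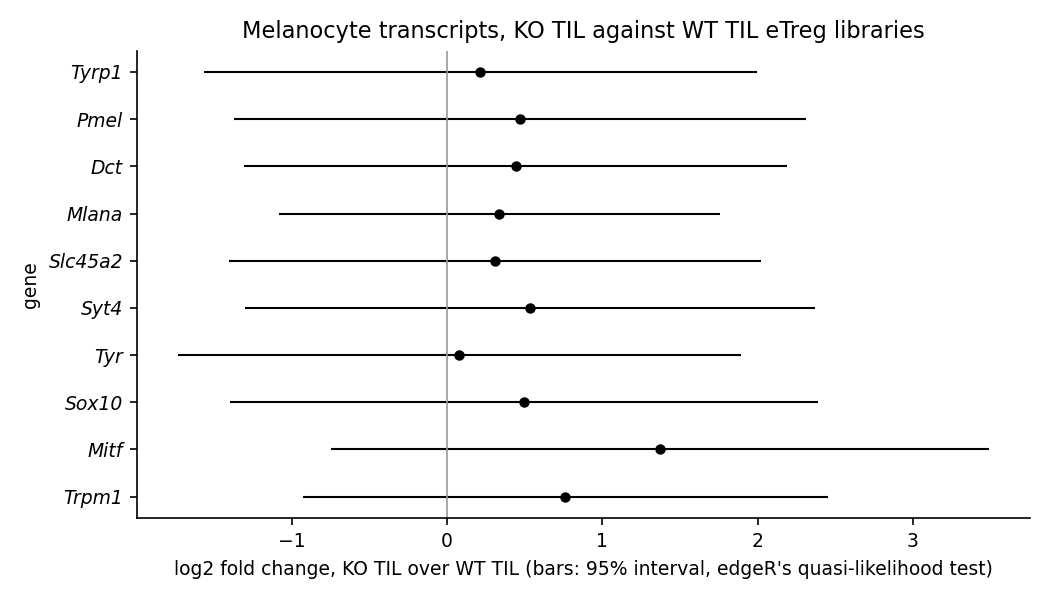
Log2 fold change of each melanocyte gene, KO TIL over WT TIL, with 95% intervals from edgeR's quasi-likelihood test on 2 libraries a group. All 10 intervals include 0, from Tyr at 0.08 to Mitf at 1.37.

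In the spleen, where the WT libraries also took part in choosing the genes, 3 of the 10 passed the expression filter, Pmel, Mitf and Trpm1. Their log2 fold changes, KO over WT, were -0.45 (standard error 0.45), -0.69 (0.66) and -0.88 (0.52), each with an adjusted p of 0.878 by edgeR's quasi-likelihood test, so 0 were called, as were 0% of 16583 genes (489 had an unadjusted p under 0.05). DESeq2's Wald test gave these 3 an adjusted p and called 0 of them, against 0.441% of 17020 genes. It gave no adjusted p for the other 7, of which Tyrp1 had an unadjusted p of 0.0454. In CPM, 2 of these 3, Trpm1 and Pmel, lay lower in both KO than in both WT splenic libraries, as did 15.7% of the genes tested, and Mitf overlapped. The 13 Tyrp1, 6 Dct and 10 Mlana counts of WT splenic replicate 1 were above the 0, 0 and 3 or fewer counts of the KO splenic libraries.

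Other genes of the pathway came from lists chosen with earlier results known. Of 12 further pigment genes, 11 were tested in KO TIL against KO spleen and Mir211 had no counts. The median log2 fold change was 7.30, against 0.01 over all 16933 genes, and 10 of the 11 were above 0, against 50.7% of all genes. These 10 ran from 4.70 for Mreg, a melanosome transport gene, to 11.95 for Mlph, which links melanosomes to myosin. Gpr143 and Mlph had 0 splenic counts, and with these 2 at their lower bounds the median was 6.90. Like them, Oca2, Mc1r and Cited1, at 0.177 CPM or less in the KO spleen, passed the expression filter through KO TIL alone. Such genes could only lie above 0, so the shares of all genes are not a like background for them. edgeR's test called 0 of the 11 higher, with adjusted p-values of 0.0501 to 0.0660 for the 10 above 0. All 11 had an unadjusted p under 0.05 by that test, against 31% of all genes. It called 1 lower, against 0.543% of all genes, Capn3, which encodes a calpain protease (log2 fold change -4.45, standard error 0.30, adjusted p = 0.0332), at 39.9 and 33.1 CPM in the KO spleen and 1.68 and 1.61 CPM in KO TIL. DESeq2 called all 11, Capn3 as lower and the other 10 as higher, against 18.9% of all genes in either direction. Slc24a5, a melanosome ion exchanger, reached 57.5 and 17.1 CPM for KO TIL, 41.3 and 18.0 CPM for WT TIL, against 0.24 to 0.58 CPM in the spleen, and Rab38, a GTPase of melanosome traffic, was at 72.2, 20.2, 50.6 and 17.9 CPM in the same TIL libraries. The list's sum in these TIL libraries, 1718, 324, 638 and 356 CPM, was mostly Gpnmb, at 1389, 250, 491 and 304 CPM. In the spleen the sum, 40.7 to 53.2 CPM, was mostly Capn3, at 33.1 to 48.5 CPM. Slc7a11 varied far more between the TIL libraries, at 110, 13.9, 13.6 and 0.304 CPM. Slc24a5, Rab38, Gpnmb and Slc7a11 were chosen after their values were seen.

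The 30 genes of lysosome-related organelles, which many cells use, showed a median of 0.27 on the log2 scale in that comparison, with 19 above 0, against 50.7% of all genes tested. edgeR called 0 of them, 9 had an unadjusted p under 0.05 against 31% of all genes, and DESeq2 called 7 against 18.9% of all genes in either direction, so these shares lay near those of all genes. Of 26 neural crest and melanoma lineage genes, 16 passed the expression filter of edgeR's fit. Their median was 2.87, with 13 above 0, 0 called by edgeR and 9 at an unadjusted p under 0.05. DESeq2, fitted without that filter, called 10 of the 26. These counts stand beside the same 50.7%, 31% and 18.9% of all genes. Met, Cdh19 and Pax3, at 0 to 0.127 CPM in the KO spleen, also passed the filter through KO TIL alone. For such genes those shares are not a like background. Of this list Met, a receptor tyrosine kinase, and Cdh19, a cadherin of Schwann and melanoma cells, were named after their values were seen. Both had 0 counts in the KO spleen, and the median stayed 2.87 with them at their lower bounds. Met reached 139 and 20.8 CPM for KO TIL, 23.7 and 12.7 CPM for WT TIL, and Cdh19 reached 12.3, 4.75, 7.69 and 3.64 CPM in those libraries. Between KO and WT TIL, the medians of the 3 lists were 0.75, 0.18 and 0.43, and edgeR called 0 genes of any list. DESeq2 called 1 in each, Mreg, Bloc1s3 and Kit, with adjusted p-values of 0.0370, 0.0194 and 0.0321, against 0.476, 0.302 and 0.297 by edgeR's test. DESeq2 called 4.43% of all genes in this comparison, so 1 call of 30 organelle genes is not above that share. Mreg reached 24.1 and 6.99 CPM for KO TIL, 3.20 and 0.37 CPM for WT TIL.

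The 24 genes outside the list that had at least 100 counts in every TIL library and at most 3 in every splenic library were ranked by how closely they kept pace with the summed melanocyte transcripts, as the SD over the 4 TIL libraries of log2 of the gene's level over the sum. For the 10 melanocyte genes, which are part of that sum, the SD ran from 0.056 (Slc45a2) and 0.070 (Dct) to 0.532 (Trpm1) and 0.741 (Mitf). Over the 24 genes it ran from 0.100 to 2.10, with a median of 0.368. The 10 closest were Gulp1, an engulfment adaptor (0.100), Fam198b (0.107), Unc5c, a netrin receptor (0.147), Cyp2j6, a cytochrome P450 (0.158), Nrcam, a neuronal adhesion molecule (0.164), Ptgds, a prostaglandin D synthase (0.178), Fermt2, a kindlin of integrin signalling (0.194), Scrn1 (0.210), Gm773 (0.284) and Insc, a spindle orientation gene (0.307). Fam198b, the most abundant of them, reached 84.7 and 19.4 CPM for KO TIL, 45.4 and 26.1 CPM for WT TIL, in the enzymes' order of libraries. At the other end stood 4 genes with larger spreads than Mitf, namely Met (0.942), the chemokine genes Ccl7 (1.12) and Cxcl1 (1.86), and Nos2, inducible nitric oxide synthase (2.10). Nos2 reached 288 and 24.0 CPM for KO TIL, 18.4 and 3.47 CPM for WT TIL, a range far wider than that of the melanocyte sum. With 4 libraries these are descriptions.

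**Figure D5:**
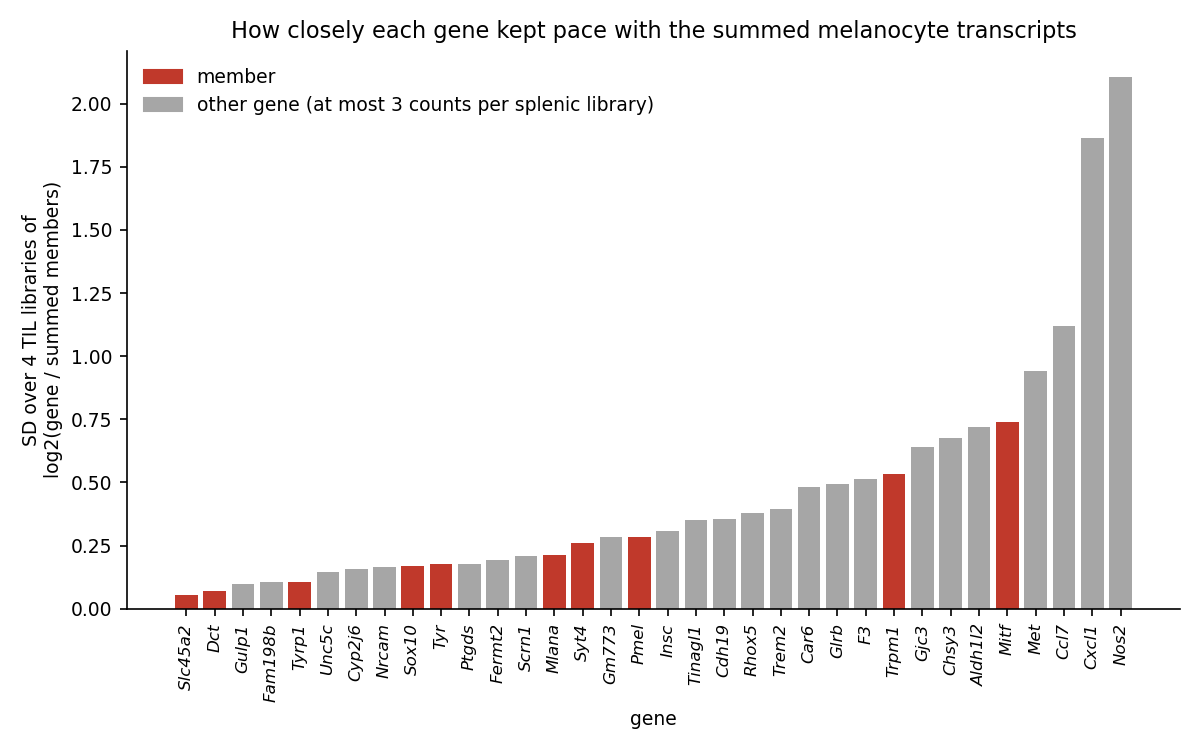
SD over the 4 TIL libraries of log2 of each gene's level over the summed melanocyte transcripts, for the 10 members of that sum and 24 other genes with at most 3 counts in any splenic library (bars start at 0). Slc45a2 and Dct have the smallest values and Mitf and Trpm1 the largest among the melanocyte genes, while Nos2 reaches 2.10.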

How the data were processed

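mRNA of sorted eTreg cells was sequenced in 8 libraries, 2 per group. Per the submitters' processing notes, reads were trimmed with Trimmomatic 0.36, aligned to GRCm38 with STAR 2.5.2b and counted within exons by featureCounts (Subread 1.5.2). The authors deposited these raw counts per gene, which were used unchanged. A deposited table of normalized counts was not used.

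The 10 genes, the further lists and the tests were chosen with earlier results of these data known. Named genes are the 10, Prdm1, called genes of each list, the 10 genes closest to the melanocyte sum, and single marker genes where a result turns on them. Dgka is named for its exon overlap. All others were named after their values were seen. Levels are CPM with TMM factors over 8 libraries. Each comparison was fitted on its 4 libraries, over all genes kept by filterByExpr, with edgeR 4.0.16 (R 4.3.3), and the standard error is the fold change over the square root of F. The scripts were tested on simulated data. Alternatives were DESeq2 1.42.0, its size factors, all 8 libraries, no filter, a log2 fold change over 2, the replicate number as a block and each library left out. Depth was 27834676 to 43903859 counts. Positions and exon overlaps are from GENCODE M21, promoter sequences from RefSeq.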

Additional observations from a re-analysis of the deposited data

How the results depend on the processing

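Of the tests between KO and WT, 0 of the melanocyte genes tested were called under all alternatives run, 10 in TIL and, in spleen, those that gave an adjusted p. For KO TIL against KO spleen, the 2 genes called became 10 with DESeq2's Wald test, with all 8 libraries in the fit or with no filter, and 0 to 10 with 1 library left out (0 without either KO splenic library, 10 without either KO TIL library). The cause was not tested. Leaving out 1 library leaves a lone sample that is assumed to vary like the other group. All genes called in that comparison, 228 as reported, became 3775, 1743 and 3183 under those 3 settings and 0 to 4958 with 1 library left out. In KO against WT TIL the 0 genes called became 744, 135 and 1072. In the spleen the 0 called became 75 with DESeq2 and 167 with no filter, and 21 to 3972 with 1 library left out, 3972 without WT spleen replicate 1.

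For the further pigment genes the 1 called became 11 under DESeq2, 8 libraries or no filter and 0 to 11 with 1 library left out, and for KO against WT TIL the 0 became 1 with DESeq2 and 2 with no filter. The lysosome-related organelle genes went from 0 to 7, 5 and 7 under DESeq2, 8 libraries and no filter, 1 with DESeq2's size factors and 0 to 10 with 1 library left out, and to 1 with DESeq2 in KO against WT TIL. The neural crest genes went from 0 to 10, 8 and 10, 0 to 14 with 1 library left out, and to 1 with DESeq2 or no filter in KO against WT TIL.

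Replicate numbers are only names here. Same-numbered libraries deviated together with correlations of -0.22 for KO TIL and KO spleen, 0.23 for KO and WT TIL and 0.15 for KO and WT spleen. A replicate block gave 7 of the 10 called in KO TIL against KO spleen, with 192 of all genes called there. Pmel, called without the block, was not among the 7 (adjusted p = 0.0538 by edgeR's test). The block gave 728 genes in KO against WT TIL and 101 in the spleen. In KO TIL against KO spleen it gave 2 further pigment genes and 1 neural crest gene. In KO against WT TIL it gave 2 further pigment genes and 1 organelle gene. With the numbers crossed between tumor and spleen, a choice made after seeing the data, the block gave 10 of the 10, 2934 genes, 11 pigment, 5 organelle and 10 neural crest genes.

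The log2 fold changes between KO and WT TIL turned negative when 1 library was left out, without KO TIL replicate 1 for Pmel (-0.67), Tyrp1 (-1.13), Dct (-0.89), Mlana (-0.65), Tyr (-1.30), Sox10 (-1.0), Slc45a2 (-0.99), Syt4 (-1.02) and Trpm1 (-0.030), without WT TIL replicate 2 for Pmel (-0.08), Tyrp1 (-0.12), Tyr (-0.31) and Slc45a2 (-0.03), and with the replicate block for Tyrp1 (-0.065) and Tyr (-0.20). Their highest values with 1 library left out were 1.32 for Pmel, 0.88 for Tyrp1, 1.11 for Dct, 0.90 for Mlana, 0.76 for Tyr, 1.20 for Sox10, 0.97 for Slc45a2, 1.25 for Syt4 and 1.63 for Trpm1, and Mitf ran from 0.073 to 2.37. In the spleen Mitf ran from -1.14 without WT spleen replicate 1 to 0.12 without WT spleen replicate 2. The median ratio of shares, 1.32, became 1.42 with the geometric mean as denominator, 1.37 without Tyrp1 in the sum and 1.27 to 1.32 with 1 library left out. Without Tyrp1 the melanocyte sum of WT TIL replicate 1 was 1236 CPM, and the order of the TIL libraries by the sum held under the 4 alternatives. With 2 libraries a group, precision is set by their spread, not by depth.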
